A study of Mus musculus with 12 samples.

Results

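The 46 genes described here write, read or erase DNA methylation and the Polycomb histone marks, and they were chosen by symbol from the 30743 gene rows of the deposited table. All 46 symbols were found in it. They comprised 5 genes of the DNA methyltransferase group with Uhrf1, 3 TET dioxygenases, 4 methyl-CpG-binding domain (MBD) proteins, 6 core and 4 accessory subunits of Polycomb repressive complex 2 (PRC2), 16 subunits of PRC1, 3 proteins with malignant brain tumour (MBT) repeats, 3 subunits of the Polycomb deubiquitinase (PR-DUB) and 2 H3K27 demethylases. RNA came from whole livers of 12 male C57BL/6J fetuses at 15 ± 0.5 dpc (days post coitum). The dams of 6 fetuses ate a control diet with 13.5% of its energy from fat, and those of the other 6 a high-fat diet (HFD) with 60% of its energy from fat, for 12 to 14 weeks. The labels do not say which fetuses shared a dam.

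The value used for each gene is the authors' average log2 CPM (counts per 1000000 reads) over all 12 livers of both diets, printed here mostly as CPM, that is, 2 raised to that average. It is 1 value per gene with no value for a single liver, so no difference between the diets, no spread over livers and no test is given, and neighbours in an order of levels cannot be told apart. From the lowest values in the table, the average library held an estimated 13129748 reads, so that 1 CPM was about 13.1 reads in each liver. A gene without a read is written as 0.152 CPM, since the values hold a prior count of 2, and the regulators' values under 1 CPM are therefore also given as estimated reads over all 12 livers. CPM holds the length of a gene as well as its abundance, so an order between genes is given per kilobase of exon. In whole liver, fewer cells of a type and less RNA per cell cannot be told apart.

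Methyl groups on CpG dinucleotides are laid down by DNA methyltransferases, copied at replication by the pair of Dnmt1 and Uhrf1, and oxidised by TET enzymes. PRC2 methylates H3K27, PRC1 binds this mark through its CBX subunits and attaches ubiquitin to another histone, and the PR-DUB and Kdm6 enzymes reverse these marks. At midgestation the liver is the main site of blood formation, and Bmi1, Ezh2, Dnmt1, Tet2 and Asxl1 are known for roles in blood stem and progenitor cells.

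Tissue markers were read first. The hepatocyte genes Alb and Afp reached 63314 and 54525 CPM, and the erythroid gene Klf1 692 CPM, while none of the 4 markers of pluripotent cells had a read and 3 of the 4 germ cell markers had none. Of the 3 neuron markers found, Rbfox3 had no read and Syt1 had 1, but Stmn2 stood at 1.12 CPM (151.9 reads). Several defining genes of cells that this liver holds were nonetheless absent or nearly so: Hnf4a, Pecam1 and Pdgfrb had no read, Kit had 1, Serpina1a had 5, and Alas2 stood at 0.704 CPM (86.9 reads). Each of these 6 has 2 or more curated RefSeq transcripts. The pattern has exceptions, since Tfrc and Kdr, with 2 transcripts each, stood at 33.8 and 71.0 CPM and Csf1r, with 1, at 0.684 CPM (83.8 reads). A low value in this table was not read as low expression of a gene, here or for the regulators.

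Of the 46 regulators, 28 (60.9%) lay above 1 CPM, against 33.1% of all rows and 45.4% of the 18351 protein-coding genes with a RefSeq transcript. Their median was 2.10 CPM. The 44 with a read had a median percentile of 58.8 among all 19652 rows with reads. Together the 46 values summed to 2289 CPM, of which Rbbp4 alone held 40.2%.

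**Figure D1:**
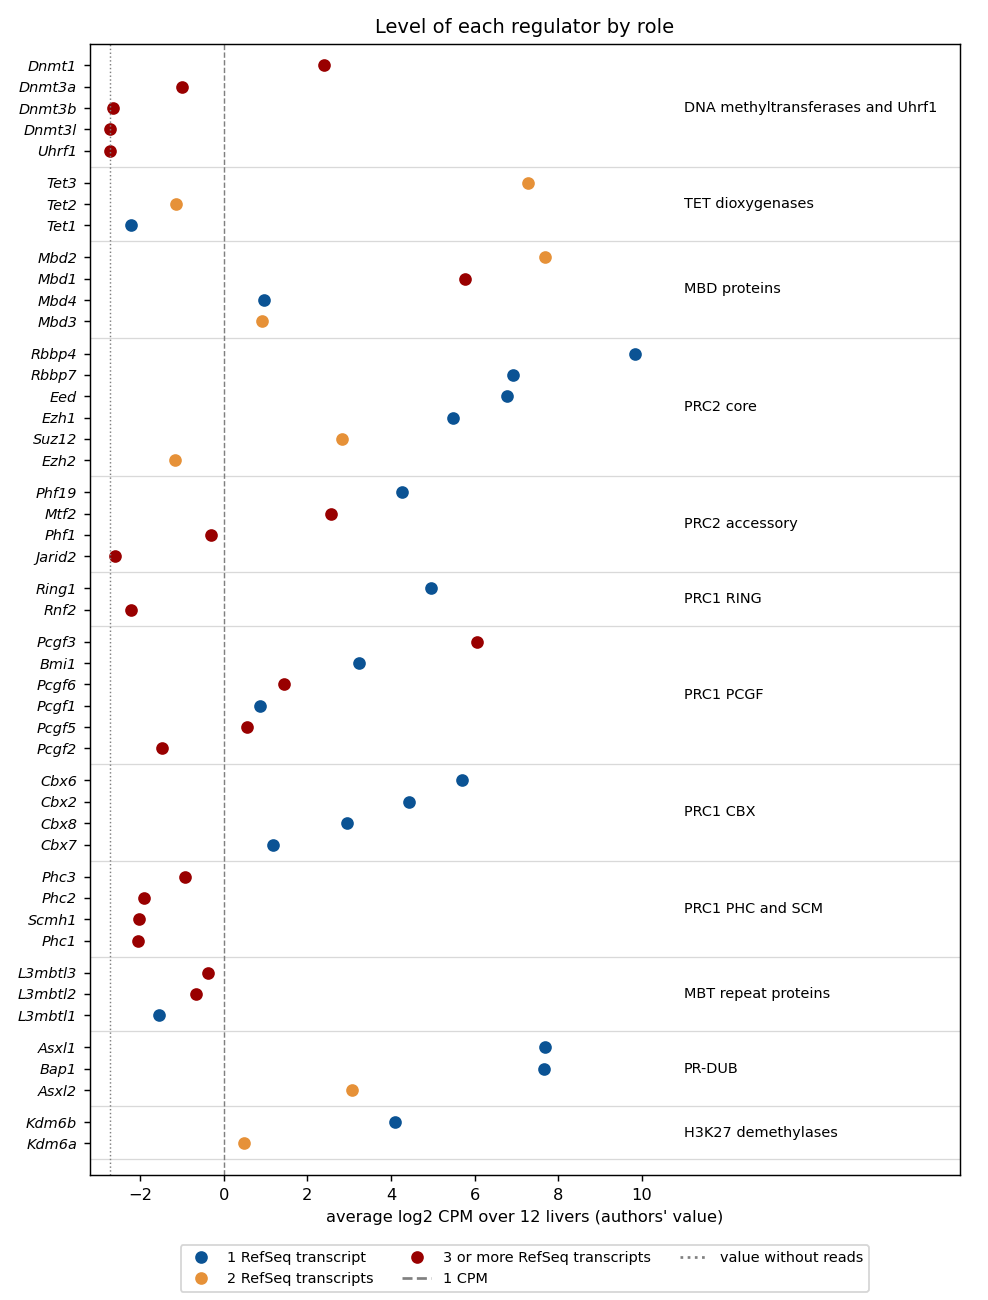
Average log2 CPM of the 46 regulators over 12 livers (horizontal axis), 1 point per gene, grouped by role and coloured by the number of curated RefSeq transcripts. The dashed line marks 1 CPM and the dotted line the value of a gene without reads; Dnmt3a, Dnmt3b, Dnmt3l, Uhrf1 and all 4 PHC and SCM genes lie left of 1 CPM, and Rbbp4 lies farthest right.

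Among the DNA methyltransferases, Dnmt1, which copies methylation to the new strand, stood at 5.31 CPM and was the only one of 5 above 1 CPM. The de novo enzyme Dnmt3a had 0.503 CPM, an estimated 55.2 reads over the 12 livers, and its paralog Dnmt3b had 1 read. Uhrf1, which brings Dnmt1 to hemimethylated CpGs, and Dnmt3l, a partner of the de novo enzymes without activity of its own, had no read. A count of 0 over 12 livers allows up to 0.0190 CPM, counting error only. These 5 genes have 5, 3, 9, 4 and 6 curated RefSeq transcripts in the order Dnmt1, Dnmt3a, Dnmt3b, Uhrf1, Dnmt3l, so that none of them has 1 transcript alone.

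The TET enzymes were far apart, at 9.32, 0.0271 and 0.0140 CPM per kilobase for Tet3, Tet2 and Tet1. Tet3 reached 155.5 CPM, the 94.9th percentile of the rows with reads, whereas Tet2 had 0.457 CPM (47.9 reads) and Tet1 0.216 CPM (10 reads). Tet1 was the lowest of all 46 genes per kilobase of exon as printed, a scale on which the prior count, spread over its long exons, outweighs its reads. It is an exception to the pattern by transcript number described further on, since RefSeq lists 1 curated transcript for it. By the second measure described there it lies in the lowest class.

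All 4 MBD genes lay above 1 CPM. Mbd2, which binds methylated CpGs and recruits the NuRD remodelling complex, stood at 206.3 CPM and was second of the 46 per kilobase, at 64.2 CPM per kilobase. Mbd1, another methyl-CpG-binding repressor, stood at 54.4 CPM although it has 4 curated transcripts. Mbd4, a DNA glycosylase, and Mbd3, a NuRD subunit, had 1.95 and 1.90 CPM.

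The core of PRC2 held the highest single value and one of the lower ones. Rbbp4, a histone-binding subunit that PRC2 shares with NuRD and with a chromatin assembly factor, stood at 919.1 CPM and was also first per kilobase, at 105.1. Its gene lies on the minus strand of chromosome 4 (GRCm38, 129307100 to 129335370). Its paralog Rbbp7 on the X chromosome (162760402 to 162779092, plus strand) had 120.7 CPM and 41.5 CPM per kilobase. Eed, the subunit that reads the H3K27 mark, had 109.0 CPM and 28.5 CPM per kilobase (chromosome 7, 89954654 to 89980983, minus strand).

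The catalytic subunits were unequal in the table, at 5.99 CPM per kilobase for Ezh1 and 0.0674 for Ezh2. Ezh1 stood at 44.6 CPM and Ezh2 at 0.450 CPM, an estimated 46.9 reads in all 12 livers, which placed Ezh2 at the 36.3rd percentile of the rows with reads. Suz12, the scaffold of the complex, had 7.10 CPM. Ezh2 and Suz12 each have 2 curated transcripts, whereas the other 4 core genes have 1.

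Of the accessory PRC2 subunits, the Polycomb-like proteins Phf19 and Mtf2 had 19.3 and 5.94 CPM, and Phf1 had 0.811 CPM (103.8 reads). Jarid2, which helps to place PRC2 on chromatin, had an estimated 2 reads over the 12 livers and was next to the lowest of the 46 per kilobase. Mtf2 has 8 curated transcripts and still lay above 1 CPM.

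In PRC1, the catalytic RING proteins stood at 9.54 CPM per kilobase for Ring1 and 0.0524 for Rnf2. Ring1 had 30.9 CPM, with 1 curated transcript, and Rnf2 had 0.216 CPM, an estimated 10.1 reads, with 4. The PCGF subunits, which define the PRC1 variants, led with Pcgf3 at 66.8 CPM, which was first of the 6 per kilobase too (7.00). Below it in CPM came Bmi1 at 9.43 CPM, Pcgf6 at 2.72 CPM, Pcgf1 at 1.82 CPM and Pcgf5 at 1.48 CPM, and only Pcgf2 (0.362 CPM, 33.1 reads) lay under 1 CPM. Bmi1 is the PCGF protein best known for blood stem cell self-renewal.

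The 4 CBX genes among the regulators described here, chromodomain readers of the H3K27 mark, were all above 1 CPM and all have 1 curated transcript. Cbx6 had 52.0 CPM, Cbx2 21.6 CPM, Cbx8 7.67 CPM and Cbx7 2.25 CPM. Per kilobase, Cbx2 and Cbx6 were close, at 5.06 and 4.90 CPM, with Cbx8 at 2.09 and Cbx7 at 0.348. The Polyhomeotic genes and Scmh1, which join PRC1 complexes to each other, were the reverse in the table, with no gene of 4 above 1 CPM and 3 to 7 curated transcripts each. Phc3 had 0.527 CPM (59 reads), Phc2 0.266 CPM (17.9 reads), Scmh1 0.247 CPM (15 reads) and Phc1 0.242 CPM (14.1 reads). The 3 MBT repeat genes, whose products bind methylated lysines, also stayed under 1 CPM, with 0.777 CPM (98.4 reads) for L3mbtl3, 0.628 CPM (74.9 reads) for L3mbtl2 and 0.345 CPM (30.3 reads) for L3mbtl1.

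The enzymes that remove Polycomb marks were above 1 CPM throughout. Bap1, the deubiquitinase, stood at 200.9 CPM and was the third per kilobase (42.9 CPM per kilobase; chromosome 14, 31251450 to 31259944, plus strand). Its cofactors Asxl1 and Asxl2 had 206.6 and 8.36 CPM. The H3K27 demethylases Kdm6b and Kdm6a had 17.1 and 1.40 CPM. At the other end of the order per kilobase stood Dnmt3a (0.0302), Phc3 (0.0301), Tet2 (0.0271), Jarid2 (0.0170) and Tet1 (0.0140 CPM per kilobase), of which all but Tet1 have 2 or more curated transcripts. The prior count makes up much of these values, and Uhrf1 and Dnmt3l, shorter genes without a read, rank above them for that reason (0.0358 and 0.0510 CPM per kilobase).

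The levels moved with the number of curated RefSeq transcripts of a gene, a split made after the values were seen. The 18 regulators with 1 transcript had a median of 20.4 CPM, and 16 of them lay above 1 CPM. The 8 with 2 had a median of 3.67 CPM with 6 above 1 CPM, and the 20 with 3 or more a median of 0.515 CPM, also with 6 above. Of the 18 regulators not above 1 CPM, 16 have 2 or more transcripts, and the other 2 are Tet1 and L3mbtl1. The highest gene with 3 or more was Pcgf3, with 3 transcripts, followed by Mbd1.

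The same split over all protein-coding genes was weaker in the middle and plain among high values. Genes with 1 transcript (n = 10980) had a median of 0.814 CPM, 48.4% of them lay above 1 CPM and 29.2% above 16 CPM. Genes with 2 or more (n = 7371) had a median of 0.544 CPM, with 40.8% above 1 CPM and 13.2% above 16 CPM. The share without any read went the other way, at 24.8% with 1 transcript and 18.3% with 2 or more. Among genes with a CpG-dense promoter, as most of the regulators have, the gap was wider: a median of 18.0 CPM with 1 transcript (n = 3661) and 0.957 CPM with 2 or more (n = 3884), with 76.0% and 49.4% above 1 CPM and 4.70% and 11.9% without a read. Among genes without a CpG-dense promoter the medians ran the other way, at 0.171 CPM with 1 transcript (n = 4956) and 0.241 CPM with 2 or more (n = 2142), with 27.2% and 28.0% above 1 CPM.

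**Figure D2:**
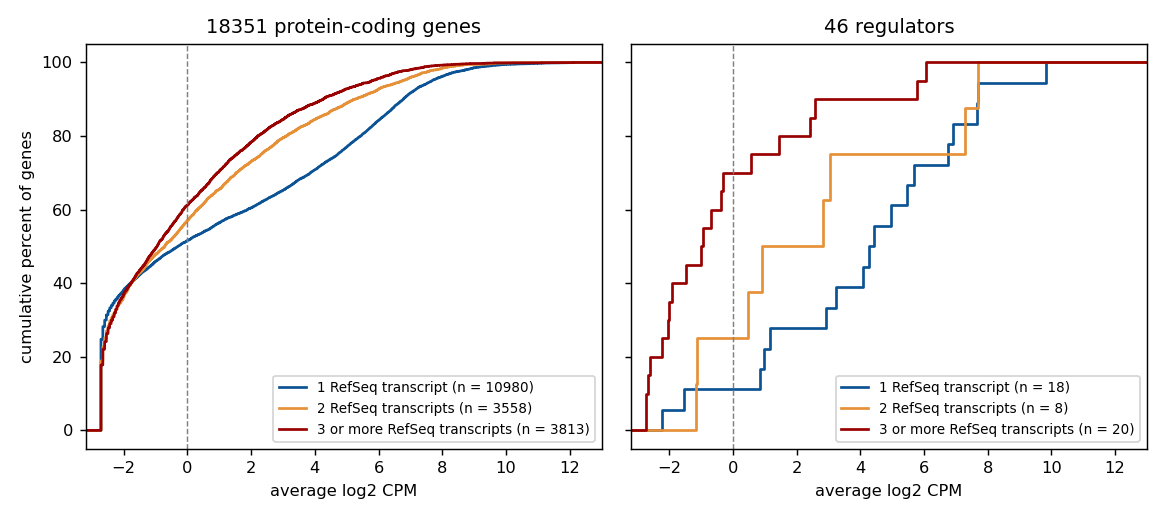
Cumulative percent of genes (vertical axis) up to each average log2 CPM (horizontal axis), for all 18351 protein-coding genes on the left and the 46 regulators on the right, in 3 classes of curated RefSeq transcripts. Above 1 CPM (dashed line) the curve of 1-transcript genes runs below that of genes with 3 or more in both panels, and on the left it starts highest because 24.8% of these genes had no read.

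A second measure followed the same direction. For genes with 2 or more GENCODE transcripts linked to RefSeq, the share of exonic bases that lie in 1 of those transcripts alone was computed. A base that also lay in a linked transcript of another gene, on either strand, was left out of this share. Overlap between genes therefore lowers it as well. Over all protein-coding genes the median rose from 0.235 CPM where this share was under 5% (n = 993) to 0.411 CPM from 5 to 25% (n = 2072), 0.693 CPM from 25 to 75% (n = 1732) and 2.72 CPM at 75% or more (n = 264). Among the 24 regulators with such transcripts, the medians were 0.453 CPM (n = 10), 0.628 CPM (n = 11) and 5.94 CPM (n = 3) in the first 3 classes. How reads shared by several transcripts of a gene were counted is not given in the sources used here, and its part in these levels was not tested.

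**Figure D3:**
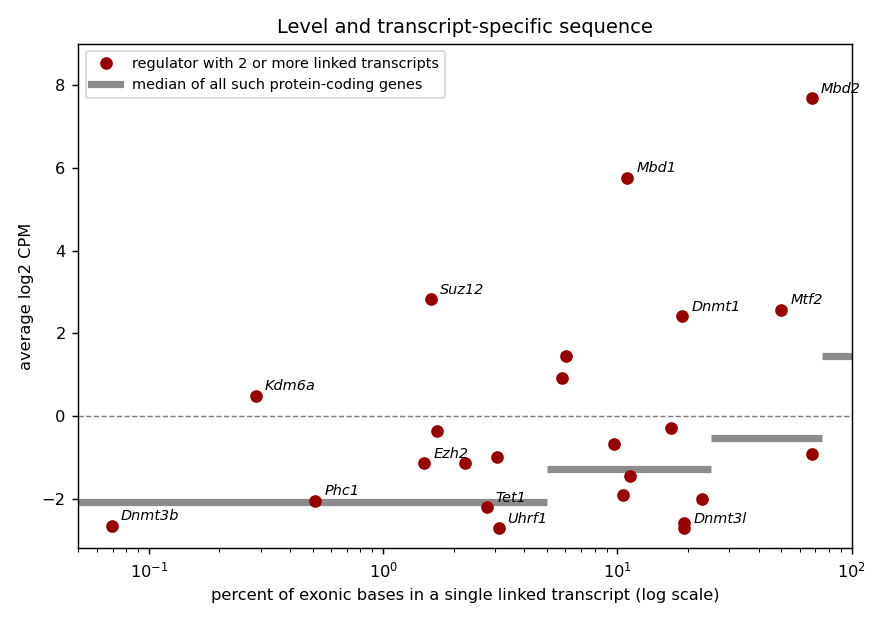
Average log2 CPM (vertical axis) against the percent of exonic bases found in a single linked transcript (horizontal axis, log scale) for the 24 regulators with 2 or more linked transcripts, with grey bars for the medians of all such protein-coding genes by class. Ezh2, Uhrf1 and Dnmt3b lie at the left with under 5% and low levels, Mbd2 at the upper right, and Suz12 and Kdm6a at the left but above 1 CPM.

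The coding stretches behind this measure are short in the regulators concerned, and 5 are printed from GENCODE M21 (GRCm38), 5′ to 3′ along the transcript, with the bases found in 1 linked transcript in capitals and up to 20 shared bases of the spliced transcript on each side in lower case. Ezh2 has 42 such bases of 2802, in runs of 15 (chr6:47551717-47551731) and 27 (chr6:47576536-47576562), both on the minus strand. Kdm6a has 17 of 5935 (chrX:18277547-18277563, plus strand), and Dnmt3b 3 of 4326 (chr2:153675726-153675728, plus strand). Suz12, at 1.44 CPM per kilobase of all exons against 0.0674 for Ezh2, has 70 of 4373, of which the run of 69 coding bases is shown (chr11:79999057-79999125, plus strand).
Ezh2, run of 15: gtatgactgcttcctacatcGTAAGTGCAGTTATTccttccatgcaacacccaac
Ezh2, run of 27: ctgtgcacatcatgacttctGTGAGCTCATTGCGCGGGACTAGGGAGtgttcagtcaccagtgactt
Kdm6a: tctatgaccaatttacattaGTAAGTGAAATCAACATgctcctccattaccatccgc
Dnmt3b: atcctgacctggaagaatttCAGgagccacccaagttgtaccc
Suz12: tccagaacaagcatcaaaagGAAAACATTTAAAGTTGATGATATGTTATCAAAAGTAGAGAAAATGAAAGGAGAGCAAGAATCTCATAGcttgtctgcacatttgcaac
The first Ezh2 run and the Kdm6a run both begin with GTAAGTG. Apart from 1 base of Suz12 that is not shown, all other bases of these genes' linked transcripts lie in more than 1 linked transcript, of the same or of an overlapping gene. Further exons of unlinked transcripts were not counted, and a read across a splice junction can still tell transcripts apart.

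A further measure was added after the values were seen. It divides the CPM of the whole gene, with the prior count removed, by the length of those bases alone. No reads were counted on those bases, so it is not a measured level of that sequence. On this scale Suz12 stood at 99.2 CPM per kilobase, Kdm6a at 73.5 and Ezh2 at 7.09. Ezh1, whose bases all lie in its 1 linked transcript, stood at 10.6 CPM on the same scale. Uhrf1 and Dnmt3l, with 114 and 516 such bases, stayed at 0. The measure does not cover every gene: Rnf2 has 4 RefSeq transcripts but 1 linked in GENCODE, so that all of its bases count as found in 1 transcript. The same holds for Tet3, Pcgf3 and Pcgf5, with 2, 3 and 5 RefSeq transcripts. Asxl2, with 2 RefSeq transcripts and 1 linked, has 97.5% of its bases counted so. Tet1 is the reverse, with 1 RefSeq transcript but 2 linked ones, and 2.76% of its bases lie in 1 of them alone.

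Paralogs were set side by side in 23 pairs, per kilobase of all exons. For the 22 pairs with reads for both genes the ratio ran up to 667-fold, for Tet3 over Tet1. Ezh1 stood 88.9-fold above Ezh2, Ring1 182-fold above Rnf2 and Tet3 344-fold above Tet2. Mbd2 was 67.2-fold above Mbd3, Pcgf3 59.6-fold above Pcgf5 and Asxl1 52.9-fold above Asxl2. Without the prior count the log2 ratio of Tet3 to Tet1 went from 9.38 to 11.15, that of Rnf2 to Ring1 from -7.51 to -9.25 and that of Ezh2 to Ezh1 from -6.47 to -7.06. Bmi1 was 23.1-fold above Pcgf2, Kdm6b 14.7-fold above Kdm6a and Cbx2 14.6-fold above Cbx7.

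The closest pairs were Dnmt3b with Dnmt3a and L3mbtl1 with L3mbtl3, each within 1.03-fold, and the 3 pairs of Phc genes, within 1.51-fold. The order within these 5 pairs depended on the length used or on the prior count. L3mbtl2 was as close to L3mbtl1, at 1.29-fold, and stayed the higher of that pair in every setting. In 16 pairs the genes differ in transcript number, and the gene with fewer was the higher in 9. In the 10 pairs where 1 gene alone has a single transcript, that gene was the higher in 7. Transcript number and order within a pair were not tested against each other.

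**Figure D4:**
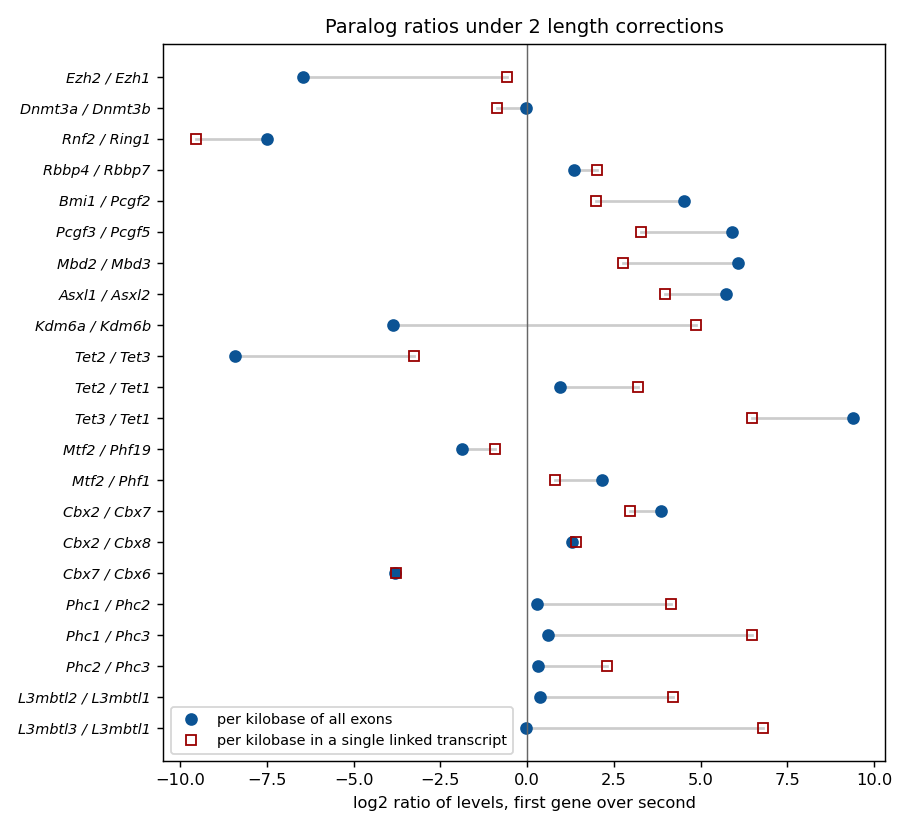
The log2 ratio of the levels of 22 paralog pairs, first gene over second (horizontal axis), per kilobase of all exons (filled circles) and per kilobase of bases in a single linked transcript with the prior count removed (open squares). The Ezh2 over Ezh1 ratio moves from -6.47 to -0.58, and the Kdm6a over Kdm6b and L3mbtl3 over L3mbtl1 ratios cross 0. Both scales divide the CPM of the whole gene, and no reads were counted on the single-transcript bases.

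The log2 ratio of Ezh2 to Ezh1 moved from -6.47 to -0.58 with the length of the bases in a single transcript and no prior count. Removing the prior count alone gave -7.06. Kdm6a over Kdm6b turned from -3.88 to 4.85. Tet2 over Tet3 moved from -8.43 to -3.27 and kept its sign. Rnf2 over Ring1 moved away from equality, from -7.51 to -9.54, and stood at -9.25 with the prior count alone removed. Of the 4 pairs with 1 curated transcript in both genes, Cbx7 over Cbx6 kept nearly the same ratio (-3.82 and -3.77). Cbx2 over Cbx8 went from 1.28 to 1.42, Rbbp4 over Rbbp7 from 1.34 to 2.02 and Cbx2 over Cbx7 from 3.87 to 2.96.

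Promoters were read for the 41 regulators with an entry among the RefSeq start sites (GRCm38.p6; 56 starts, from 250 bases before to 50 after each). The genes without an entry were Cbx2, Kdm6b, Mbd1, Mbd2 and Pcgf1. A window was counted as CpG-dense with at least 50% GC and an observed over expected CpG ratio of at least 0.6. At least 1 start was CpG-dense in 37 of the 41 (90.2%), against 36.0% of all 27025 genes and 51.5% of 14643 protein-coding genes of the table. The 4 without one were Tet3, Phc1, Pcgf2 and Dnmt3l.

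Levels of the regulators spread widely within the CpG-dense class. The 15 CpG-dense genes with 1 curated transcript ran from 0.216 to 919.1 CPM with a median of 30.9 CPM, and the 22 with 2 or more from 0.152 to 66.8 CPM with a median of 0.702 CPM. The 4 genes without a CpG-dense start, which all have 2 or more, ran from 0.152 to 155.5 CPM with a median of 0.302 CPM. Over all protein-coding genes the CpG-dense class was the higher, at 18.0 against 0.171 CPM in the median with 1 transcript and 0.957 against 0.241 CPM with 2 or more. Tet2, with the most CpGs (57 in the window), had 0.457 CPM, and Tet3, with 22 and no CpG-dense start, had 155.5 CPM.

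**Figure D5:**
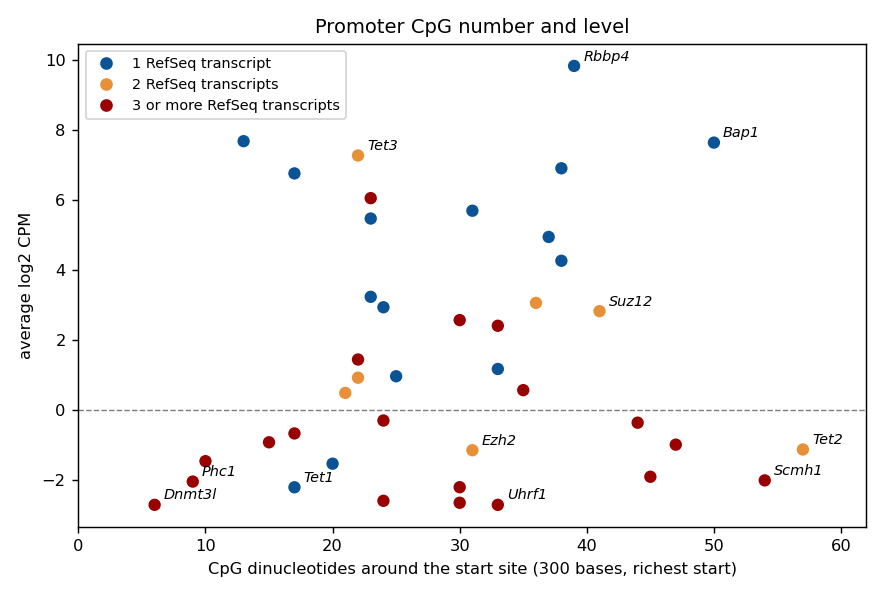
Average log2 CPM (vertical axis) against the number of CpG dinucleotides in the 300 bases around the start site, richest start of each gene (horizontal axis), for 41 regulators coloured by the number of curated RefSeq transcripts. Genes above and below 1 CPM (dashed line) occur across most of the range of CpG number, and Tet2 and Scmh1 combine many CpGs with low levels.

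The 250 bases before a start are shown for the highest regulator, for Ezh2 and for both genes without a read, on the gene's strand from 5′ to 3′ and with each CpG in capitals. They are the windows of Rbbp4 (chr4:129335371-129335620), Ezh2 (chr6:47595031-47595280), the second start of Uhrf1 (chr17:56304063-56304312) and the first of Dnmt3l (chr10:78042037-78042286).
Rbbp4, minus strand: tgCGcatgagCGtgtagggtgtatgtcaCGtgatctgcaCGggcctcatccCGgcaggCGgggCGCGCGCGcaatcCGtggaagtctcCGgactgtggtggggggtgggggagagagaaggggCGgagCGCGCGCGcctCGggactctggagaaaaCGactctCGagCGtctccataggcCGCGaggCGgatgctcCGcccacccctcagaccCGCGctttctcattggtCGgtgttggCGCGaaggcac
Ezh2, minus strand: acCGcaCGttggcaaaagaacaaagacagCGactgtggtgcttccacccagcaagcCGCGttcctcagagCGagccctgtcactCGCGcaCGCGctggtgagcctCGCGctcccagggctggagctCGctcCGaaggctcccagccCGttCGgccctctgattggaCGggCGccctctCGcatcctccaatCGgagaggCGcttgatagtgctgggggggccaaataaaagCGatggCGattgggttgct
Uhrf1, plus strand: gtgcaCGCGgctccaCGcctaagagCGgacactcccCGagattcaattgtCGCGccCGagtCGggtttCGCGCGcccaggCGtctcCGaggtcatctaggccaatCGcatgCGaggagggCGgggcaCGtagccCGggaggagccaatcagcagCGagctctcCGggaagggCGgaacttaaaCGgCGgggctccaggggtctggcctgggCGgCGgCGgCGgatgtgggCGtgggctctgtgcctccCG
Dnmt3l, plus strand: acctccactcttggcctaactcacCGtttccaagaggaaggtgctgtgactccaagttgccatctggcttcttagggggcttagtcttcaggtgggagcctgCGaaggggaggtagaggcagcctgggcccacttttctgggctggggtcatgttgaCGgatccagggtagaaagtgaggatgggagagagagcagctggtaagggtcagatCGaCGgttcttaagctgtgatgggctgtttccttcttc
Rbbp4 and Uhrf1 hold the same number of CpGs in these bases, 30 each, with the highest level of the 46 genes in one and no read in the other. Ezh2 holds 23 and Dnmt3l 5, and the bases before the first start of Uhrf1, not shown, hold 10.

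Short motifs were searched on both strands of the windows, with at least 1 match in any start of a gene counted. The GC box GGGCGG was found in 35 genes (85.4%), against 38.2% of all genes and 52.3% of the protein-coding genes. These groups also differ in CpG-dense starts (90.2%, 36.0% and 51.5%), and no share among CpG-dense genes alone was computed. The regulators had 56 starts for 41 genes, and all genes 32851 for 27025. The E2F letters GGCGGGAA were found in 5 (12.2%, against 2.52% and 3.50%): Asxl1, Scmh1, Mbd4, Uhrf1 and Pcgf5. It shares GGCGG with the GC box, so that matches to both can overlap. CCAAT was found in 41.5% and in 41.1% of all genes, the ETS letters CCGGAAGT in 2.44% and 4.31%, and TATAAA in 7.32% and 15.7%. A match describes the letters in the window and no more.

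Other genes of these pathways gave similar counts. Of 45 in the table, 28 lay above 1 CPM. The highest in CPM were Dcaf7, a scaffold protein found with PRC1, at 279.2 CPM, the zinc finger factor Yy1 at 183.1 CPM and the chromatin remodeller Hells, which assists DNA methylation, at 155.5 CPM. No read was found for Yaf2, Bcor and L3mbtl4, and among the lowest with reads were Mbd6 (1 read) and Zbtb4 (2 reads). The 22 with 1 curated transcript had a median of 25.1 CPM and the 23 with 2 or more a median of 0.792 CPM. L3mbtl4 has 1 transcript and had no read all the same.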

How the data were processed

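PolyA-selected RNA of 12 whole fetal livers (6 control and 6 HFD) had been sequenced by the study. Per the labels and the methods of the study, cutadapt 1.2.1 had trimmed the reads, Subread 1.3.6-p1 had placed them on mm10, biomaRt had supplied the gene names, and the authors had used edgeR for the contrast of the diets. The tool that counted reads per gene, its strand setting and its handling of reads shared by transcripts or by copies of a gene are not given in the sources used here. The deposited table holds 1 row for each of 30743 symbols. From it the average log2 CPM over all 12 livers, as deposited by the authors, was used. Its other columns hold the authors' comparison of the diets (fold changes, p-values and adjusted p-values once for a common and once for a tagwise dispersion) and a second copy of the average, and were not used. The planned test between diets (edgeR on counts) was not made, since no value of a single liver was used.

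The depth was estimated from the lowest value, shared by rows without reads, and the step to 1267 genes with a single read. These gave a prior count of 2.00 (2 was used) and a mean effective library of 13129748 reads. The calculation was run on data simulated with these same 2 values. That run checks the calculation and cannot show that the depth holds for the deposited values. The library size is a mean over normalised libraries, and the depth of each liver is not known. Estimated reads rest on it and cover counting error only.

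Symbols were matched to GENCODE M21 (21069 symbols) and RefSeq on GRCm38.p6 (20855 symbols), both later than the alignment. Lengths are the union of a gene's exons. Curated transcripts are RefSeq accessions of the NM and NR kind. Levels of all 46 genes are given. Those named more fully are the 5 highest and 5 lowest per kilobase, and of the other pathway genes the 3 highest, the 3 lowest with reads and those without reads, apart from items that are not reported here. The members, lists and pairs were chosen with earlier results of these data known, and the split by transcript number, the bases of a single transcript, the motifs and the genes under the closing observations after the values were seen. Python 3.11.15, pandas 2.3.3, numpy 2.4.6 and matplotlib 3.10.9 were used.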

Additional observations from a re-analysis of the deposited data

How the results depend on the processing

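With a threshold of 0.5 or 2 CPM in place of 1, 33 or 23 of the 46 regulators lay above it, and 28 did with the prior count removed. The median percentile of the regulators ran from 45.6 to 64.0 over 5 other settings. The lowest was for regulators with 2 or more curated transcripts among genes with 2 or more. The highest was for regulators with 1 among genes with 1, and both settings were chosen after seeing the data. It was 52.6 among protein-coding genes with reads, 53.1 by CPM per kilobase, and 55.5 for regulators above 1 CPM among genes above 1 CPM. With at least 55% GC and a CpG ratio of at least 0.75, 63.4% of the regulators had a CpG-dense promoter, against 24.3% of all genes. The order within a pair changed in few cases, and the cause was not tested. Dnmt3a over Dnmt3b, at -0.04 on the log2 scale, became 0.50 with the longest transcript, 1.58 with the coding length, 1.66 without a length and 4.08 without the prior count. L3mbtl3 over L3mbtl1, also at -0.04, became 0.89, 1.08, 1.17 and 0.49 in that order, and 6.81 with the bases of a single transcript and the prior count removed, where Kdm6a over Kdm6b became 4.85. Phc1 over Phc2, at 0.28, became -0.23 with the longest transcript, -0.39 with the coding length and -0.14 without a length. Phc1 over Phc3 and Phc2 over Phc3 became -1.17 and -0.78 with the coding length, -1.12 and -0.99 without a length, and -0.34 and -0.41 without the prior count. That setting, added after seeing the data, changes both the length and the prior count, and moved 18 of 22 ratios by more than 1.5-fold without a change of sign. Removing the prior count alone moved 6 so and changed the sign of 4. No paired analysis was possible because no value of a single liver was used. Ratios of genes with few reads are set largely by the prior count.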

Other observations

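The 6 subunits of the replicative helicase, which join the complex in equal numbers and were looked up after the values of the regulators had been seen, ran from no read to 859 CPM. Mcm2, Mcm3 and Mcm4, with 1 curated RefSeq transcript each, stood at 859, 617 and 607 CPM. Mcm5 and Mcm6, with 2 each, had no read and 10.8 CPM. Mcm7, with 3, stood at 459 CPM.

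Of 14 genes that nearly all cells use, 10 lay above 1 CPM. Eef1a1, Eef2 and Actb, with 1 curated transcript each, reached 5951, 3805 and 2581 CPM, and Gapdh, with 2, stood at 5.20 CPM. Ppia had 2 reads over the 12 livers, and Tbp stood at 0.638 CPM (76.5 reads), although RefSeq lists 1 curated transcript for both. Gusb, with 4, stood at 0.312 CPM (25.1 reads).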
